A study of Mus musculus with 3 samples.

Results

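The 10 zinc-dependent histone deacetylase genes *Hdac1* to *Hdac9* and *Hdac11* encode the enzymes that trichostatin A (TSA) acts on, or their closest relatives, and were taken by symbol from the 32287 features of the matrices. Histone deacetylases remove acetyl groups from lysines of histones and other proteins, and their removal from histone tails goes with closed chromatin and low transcription. TSA is a hydroxamate that chelates the zinc ion of the active site and inhibits the class I and class II enzymes broadly, while the NAD-dependent sirtuins are not inhibited by it. In Müller glia (MG), the radial glia of the retina, HDAC inhibitors are used together with injury and transcription factors because they are thought to open glial chromatin.

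Single cells were obtained from retinas of *Glast-CreERT2; R26-CAG-LSL-Tdt* mice, in which tamoxifen labels cells that use the *Glast* promoter with tdTomato. The label gives 5 daily tamoxifen doses of 75 mg/kg from postnatal day 20 (P20), an intravitreal AAV7m8 vector at P28 and harvest at P51, while the methods of the study give another tamoxifen schedule and a control vector with a non-target shRNA. The control library came from eyes with AAV7m8-GFAP-GFP-LacZsh. The CCA (cell cycle activator) library came from eyes with AAV7m8-GFAP-cyclinD1-p27sh mixed 9:1 with the control vector, which raises cyclin D1 and lowers p27 under a *GFAP* promoter. The CCANT library had CCA plus NMDA, a glutamate agonist that kills inner retinal neurons, at P35 and TSA at P37, 14 days before harvest. CCANT differs from CCA by both agents, so TSA and NMDA cannot be told apart, and the day of TSA exposure itself was not sampled. Each library held 2 to 4 pooled retinas of 1 group sorted for tdTomato, so n = 1 per group, no test was possible, and intervals are exact 95% intervals for counting error only.

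Levels are unique molecular identifiers (UMIs, counted molecules) of a gene per 1000000 UMIs (CPM) summed over the cells of a class. The libraries held 219051219 to 224515457 UMIs, with 3720, 3650 and 2834 MG (control, CCA and CCANT), cycling cells included, and each member had between 1014 and 17067 UMIs in the MG of a library. MG were checked by 9 markers, all detected, with a summed level of 26386 to 29285 CPM. Rod markers reached 1.0%, 1.6% and 1.8% of their level in rods in control, CCA and CCANT MG, and microglia markers stayed below 0.4% of their level in microglia. Amacrine markers summed to 20.7%, 15.6% and 17.1% of their level in amacrine cells and endothelial markers to 24.7%, 18.3% and 23.9%. In MG *Pax6* held 500.1, 457.4 and 536.7 CPM of the former sum, and *Flt1* and *Kdr* nearly all of the latter, with *Flt1* at 1141 to 1412 CPM and *Kdr* at 710.1 to 843.4 CPM. Of the other 9 amacrine markers, *Stx1a* was at 43.6% to 53.9% of its level in amacrine cells, *Slc6a9* at 8.09% to 9.35% and the rest at 0.427% to 2.26%, and the endothelial markers *Pecam1*, *Cldn5*, *Cdh5* and *Emcn* at 0.246% or less. Sex differed between libraries: all sexed MG of the control carried Y-linked transcripts, all of CCA carried *Xist*, and CCANT was mixed with 60.2% *Xist* cells. Of the barcodes passing filters, 38 were shared by control and CCA, 24 by control and CCANT, and 23 by CCA and CCANT.

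The enzymes fall into classes by sequence and cofactors. Class I holds *Hdac1* (ENSMUSG00000028800, chr4:129516104-129542713) and *Hdac2* (ENSMUSG00000019777, chr10:36974544-37001889), the catalytic subunits of the SIN3, NuRD and CoREST complexes. It also holds *Hdac3* (ENSMUSG00000024454, chr18:37935844-37955016), the enzyme of the NCoR corepressor, and *Hdac8* (ENSMUSG00000067567, chrX:102284639-102505359), which works outside these complexes and deacetylates cohesin. Class IIa holds *Hdac4* (ENSMUSG00000026313, chr1:91928779-92195699), *Hdac5* (ENSMUSG00000008855, chr11:102194432-102230166), *Hdac7* (ENSMUSG00000022475, chr15:97792664-97844502) and *Hdac9* (ENSMUSG00000004698, chr12:34047580-34917095). These proteins shuttle between nucleus and cytoplasm and bind MEF2 transcription factors. *Hdac6* (ENSMUSG00000031161, chrX:7930120-7947889) of class IIb deacetylates tubulin in the cytoplasm, and *Hdac11* (ENSMUSG00000034245, chr6:91156665-91174692) is the single class IV gene. Coordinates are GRCm38 (mm10) gene spans from GENCODE M21. Exons cover 1.7% of the 869.5 kb *Hdac9* span and 32.7% of the 17.8 kb *Hdac6* span. Intronic reads were counted, so levels of different genes are not compared, although the summed level of the members adds them. The share of intronic reads in each cell class was not measured. Depth also differed between classes, with a median of 4966 to 5070 UMIs per cell in rods and 20514 to 24236 in MG. The part of either in differences between classes was not tested. *Hdac9* overlaps *Gm47357* on the same strand. *Hdac10*, the other class IIb gene and not a member, was at 3.3 to 3.8 CPM in MG.

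The first question was whether the transcripts of the TSA targets themselves differed in MG after TSA. All 10 members were detected in MG of every library, and none differed by 1.5-fold, or even by a log2 ratio of 0.32, between CCANT and CCA. For comparison, 3.18% of the 11747 genes that averaged 5 CPM or more and had 50 UMIs differed by at least 1.5-fold, and 9.21% by at least 0.32 on the log2 scale. The summed level of the 10 members was 619.5 (control), 611.3 (CCA) and 607.4 CPM (CCANT) in MG, a log2 ratio of CCANT over CCA of -0.01 (interval -0.03 to 0.01). The median log2 ratio of the members was -0.01, beside -0.03 for all genes tested, and the median absolute ratio was 0.05, beside 0.09.

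Among class I, *Hdac1* was at 75.2 (control), 79.0 (CCA) and 76.7 CPM (CCANT) in MG, and the CCANT value lay between the others. *Hdac2* was at 34.4, 39.0 and 38.7 CPM in the same order, so both CCA libraries were above the control. *Hdac3* was at 28.7, 31.5 and 29.9 CPM, again highest in CCA. The log2 ratios of CCANT over CCA were -0.04 (interval -0.10 to 0.01) for *Hdac1*, -0.01 (-0.09 to 0.07) for *Hdac2* and -0.08 (-0.16 to 0.01) for *Hdac3*. *Hdac8* was at 180.4, 169.2 and 160.3 CPM, highest in the control and lowest in CCANT, with a log2 ratio of CCANT over CCA of -0.08 (interval -0.12 to -0.04).

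In class IIa, *Hdac7* was at 95.1 (control), 91.6 (CCA) and 100.5 CPM (CCANT) in MG. Its log2 ratio of CCANT over CCA, 0.13 (interval 0.09 to 0.18), was the largest of the 10 in absolute size, and 67.5% of all genes tested had a ratio no larger than this. *Hdac4* was at 68.7, 60.3 and 62.5 CPM, highest in the control, with a log2 ratio of 0.05 (interval -0.01 to 0.11) for CCANT over CCA. *Hdac5* was at 23.9, 25.5 and 25.2 CPM and *Hdac9* at 80.6, 82.0 and 79.4 CPM. Their log2 ratios were -0.02 (interval -0.12 to 0.08) and -0.05 (interval -0.10 to 0.01), both within counting error of 0 with cycling cells included. Outside the cycling clusters *Hdac9* was at 86.28 CPM (interval 84.12 to 88.48) in CCA and 80.44 CPM (78.15 to 82.78) in CCANT, and these intervals do not overlap. *Hdac5* was there at 26.33 CPM (25.14 to 27.56) in CCA and 25.48 CPM (24.19 to 26.81) in CCANT.

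*Hdac6* was at 15.5 (control), 16.6 (CCA) and 17.6 CPM (CCANT) in MG, and the interval of its log2 ratio of CCANT over CCA, 0.09, reached from -0.03 to 0.21. *Hdac11* was at 17.0, 16.7 and 16.7 CPM, with the smallest absolute log2 ratio of the members, 0.00 (interval -0.12 to 0.12). The plot of levels in MG by library shows the members ordered by class with their counting intervals.

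**Figure D1:**
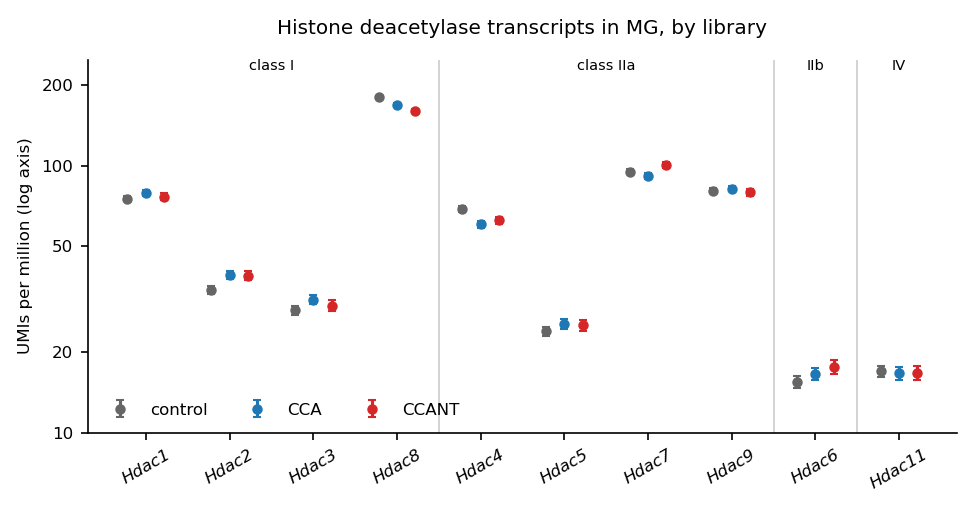
Level of each histone deacetylase transcript in MG, in CPM on a log axis, for the control, CCA and CCANT libraries; points are sums over all MG of a library and bars are exact 95% Poisson intervals. The highest library exceeded the lowest by 1.14-fold at most (*Hdac4* and *Hdac6*) and by 1.02-fold at least (*Hdac11*).

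The CCA library was compared with the control for the cell cycle vector. All sexed MG carried Y-linked transcripts in the control and *Xist* in CCA, so the vector and sex cannot be told apart here, for the X-linked *Hdac8* and *Hdac6* as for the others. No member differed by a log2 ratio of 0.32, where 17.5% of all genes tested did, and none by 1.5-fold, where 6.38% did. The largest differences were *Hdac4*, lower in CCA with a log2 ratio of -0.19 (interval -0.24 to -0.13), and *Hdac2*, higher by 0.18 (interval 0.11 to 0.25). *Hdac3* was higher by 0.13 (interval 0.05 to 0.21) and *Hdac8* lower with a ratio of -0.09 (interval -0.13 to -0.06). Without the cycling clusters the *Hdac2* ratio was 0.09, that of *Hdac1* was 0.01 instead of 0.07, and that of *Hdac9* was 0.10 instead of 0.03 (interval -0.02 to 0.07).

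CCANT against the control shares the CCANT library with the first comparison and the control library with the second. No member reached a log2 ratio of 0.32 (19.3% of all genes) or 1.5-fold (7.88% of all genes). *Hdac6* had the largest ratio, 0.19 (interval 0.07 to 0.30), followed by *Hdac2* at 0.17 (interval 0.10 to 0.25) and *Hdac8* at -0.17 (interval -0.21 to -0.13). Among MG with Y-linked transcripts only, *Hdac2* had the largest ratio, 0.24 (interval 0.13 to 0.35), and the interval of *Hdac6*, at 0.11, included 0 (-0.06 to 0.28).

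*Hdac6* and *Hdac8* are on the X chromosome, and the libraries differed in sex, so both were also compared within a sex. Cells of either sex came from different animals, so sex and animal cannot be told apart in any comparison between them. Within the CCANT library, *Hdac8* was at 154.1 CPM in 1516 MG with *Xist* and 170.7 CPM in 1000 MG with Y-linked transcripts, a log2 ratio of -0.15 (interval -0.21 to -0.09). *Hdac8* was also lower in *Xist* cells among bipolar cells of that library (-0.13, interval -0.26 to -0.01), while the intervals in rods and amacrine cells included 0. Among MG with *Xist* only, *Hdac8* was at 169.4 CPM in CCA and 154.1 CPM in CCANT, a log2 ratio of -0.14 (interval -0.18 to -0.09). Among MG with Y-linked transcripts only, it was at 181.8 CPM in the control and 170.7 CPM in CCANT, a log2 ratio of -0.09 (interval -0.14 to -0.04). The make-up of the MG also differed: the cluster with the highest *Hdac8* level held 2174, 601 and 119 MG of control, CCA and CCANT, at 191.8, 194.0 and 187.8 CPM. The cluster with the lowest *Hdac8* level outside the cycling ones held 65, 207 and 241 MG, at 131.9 CPM in CCA and 131.8 CPM in CCANT, and the part of this make-up in the result was not tested. *Hdac6* was at 17.9 CPM in *Xist* cells and 16.8 CPM in Y cells of the CCANT MG, within counting error (log2 ratio 0.10, interval -0.09 to 0.29), and its ratio of CCANT over CCA within *Xist* MG was 0.12 (interval -0.03 to 0.26). Of the autosomal members, *Hdac7* was higher in CCANT among *Xist* MG as well, 101.8 against 91.6 CPM, and *Hdac3* (log2 ratio -0.11, interval -0.22 to -0.0033) and *Hdac9* (-0.08, interval -0.15 to -0.01) were lower there, with intervals that included 0 in all MG.

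There were 2 cycling MG in the control, 339 with CCA and 103 with CCANT. The clusters were made without the members, but a cluster against the rest is a description. *Hdac1*, *Hdac2* and *Hdac3* were higher in cycling MG than in other MG of the same library, and *Hdac5*, *Hdac7* and *Hdac9* were lower, in both CCA and CCANT. *Hdac11* was lower in CCA, and in CCANT its log2 ratio was -0.39 with an interval that included 0 (-0.93 to 0.10). *Hdac6* had ratios of 0.3187 (interval 0.07 to 0.56), just under the limit of 0.3219 that is rounded to 0.32 here, in CCA and -0.23 (interval -0.72 to 0.23) in CCANT. In the CCA library, *Hdac1* was at 108.8 CPM in cycling and 75.5 CPM in other MG, and *Hdac2* at 59.6 and 36.6 CPM. In the CCANT library the values were 116.0 and 74.9 CPM for *Hdac1* and 61.0 and 37.7 CPM for *Hdac2*. *Hdac9* was at 45.7 CPM in cycling and 86.3 CPM in other MG of CCA, a log2 ratio of -0.92 (interval -1.07 to -0.77), and at 57.2 and 80.4 CPM in CCANT, a ratio of -0.49 (interval -0.74 to -0.26). A log2 ratio of at least 0.32 separated cycling from other MG for 7 of 10 members in CCA, where 49.5% of all genes did so, and for 6 of 10 in CCANT, where 50.7% did.

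The cycling cells formed a cluster led by S phase genes and a cluster led by G2/M genes. *Hdac1* was at 91.7 CPM in the first and 126.8 CPM in the second in the CCA library, and at 102.7 and 131.4 CPM in CCANT. *Hdac9* went the other way, with 59.3 and 31.3 CPM in CCA and 69.0 and 43.5 CPM in CCANT. In the first cluster the log2 ratios of *Hdac5* over other MG were -0.27 in CCA and -0.05 in CCANT, with intervals that included 0. In the second they were -0.78 and -1.05. Those of *Hdac7* were -0.17 and -0.17 in the first and -0.51 and -0.49 in the second. *Hdac11* had -0.02 and -0.06, then -0.965 and -0.90. For *Hdac7* and *Hdac9* the first-cluster intervals included 0 in CCANT and not in CCA. *Hdac2* was above the level of other MG in both clusters of both libraries, between 54.2 and 69.0 CPM. *Hdac8* had log2 ratios over other MG of -0.16 in CCA and -0.09 in CCANT with both clusters together. *Hdac4* was at 62.6 CPM in the first cluster and 46.9 CPM in the second in CCA, the latter below other MG with a log2 ratio of -0.38 (interval -0.60 to -0.17), and at 53.5 and 55.9 CPM in CCANT. The 9 MG markers summed to 89.8% of their level in other MG in the first cluster and 36.3% in the second in CCA, and to 89.3% and 44.8% in CCANT. The score used to name clusters was higher in the second cluster for T and NK cells (2.12) than for MG (1.42), while the 6 T and NK markers summed to 1.0 CPM there in CCA and 0.82 CPM in CCANT, with 4 and 5 of them at 0.

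**Figure D2:**
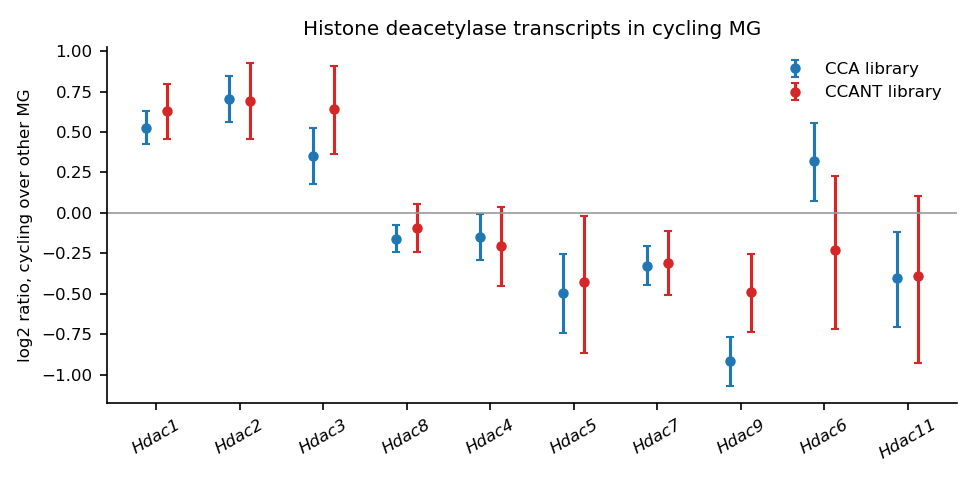
Log2 ratio of each member in cycling MG over the other MG of the same library, for the CCA library (339 cycling cells) and the CCANT library (103 cycling cells), with exact 95% counting intervals. *Hdac1*, *Hdac2* and *Hdac3* lie above 0 and *Hdac9* below it in both libraries.

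Levels also differed between the MG clusters that were not cycling. Among clusters with at least 100 cells in the library, the highest exceeded the lowest by 1.08-fold to 2.17-fold. *Hdac11* ran from 8.9 to 19.3 CPM over 5 clusters of CCA and from 11.3 to 19.6 CPM over 4 clusters of CCANT. *Hdac5* ran from 21.1 to 34.7 CPM in CCA. The lowest *Hdac11* levels and this highest *Hdac5* level were in the same cluster, the one with the lowest *Hdac8* level. In a finer clustering, a cluster of 215 cells that shared leading genes with it had markers of both MG and pigment epithelium. The part of such mixed content in these levels was not tested.

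The members were then compared between cell classes. The classes were named from marker genes among all cells passing the filters, including those without tdTomato transcripts: rods (850, 1359 and 1277 cells in control, CCA and CCANT), bipolar cells (702, 1040 and 1195), amacrine cells (550, 573 and 478), microglia (183, 141 and 142) and 6 more with at least 100 cells in all. Over these 11 classes, MG included, the highest class median over libraries exceeded the lowest by 20-fold for *Hdac7*, 12.9-fold for *Hdac9* and 12.6-fold for *Hdac11*, and by 1.92-fold to 4.33-fold for the other members. Against MG, at least 1.5-fold in the same direction in all 3 libraries separated rods for 5 of 10 members (54.2% of all genes), bipolar cells for 4 (46.4%), amacrine cells for 5 (46.0%) and microglia for 4 (45.5%). The members' shares lie near these backgrounds. Libraries also differed within the smaller classes, as for *Hdac4* in T and NK cells (47.9 to 112.8 CPM) and *Hdac6* in pericytes (5.1 to 15.7 CPM). Clusters that met no naming rule were left out, so a class may hold only a part of its cells. The largest unnamed cluster held 691 cells, and an unnamed cluster of 447 cells scored highest for amacrine cells. Another, of 546 cells, held 128, 373 and 45 cells of control, CCA and CCANT.

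*Hdac9* was high in rods, bipolar, amacrine and ganglion cells and lower in MG and astrocytes. It was at 515.8 (control), 497.8 (CCA) and 447.2 CPM (CCANT) in rods, and at 497.2, 462.8 and 475.9 CPM in bipolar cells, against 79.4 to 82.0 CPM in MG. Amacrine cells held 335.6, 271.3 and 297.6 CPM, ganglion cells 594.0, 481.9 and 559.7 CPM, and cones 229.3, 247.5 and 284.5 CPM. Rod markers in cones were at 27.0%, 28.2% and 27.9% of their level in rods, beside 1.38% to 4.73% in bipolar and amacrine cells. If all of these transcripts came from rods, 139.2, 140.4 and 124.7 CPM of *Hdac9* would be carried into cones. How much of the rod markers cones make themselves was not measured, so the carried part of *Hdac9* in cones is not known. Rods were above MG by 6.40-fold, 6.07-fold and 5.63-fold in the 3 libraries. Ganglion cells, rods, bipolar cells and endothelial cells overlapped in their ranges over libraries. Endothelial cells differed most between libraries, with 599.3 CPM in the control (25 cells), 420.2 CPM with CCA (47 cells) and 281.8 CPM with CCANT (31 cells). Astrocytes, at 42.8 to 63.1 CPM, and T and NK cells, at 38.7 to 44.5 CPM, were below MG in every library. The counting interval of the 15 control astrocytes, 45.11 to 85.98 CPM, included the MG level. In MG, rod transcripts at the level of the rod markers would carry 5.1, 7.9 and 7.9 CPM of *Hdac9* in control, CCA and CCANT.

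*Hdac7*, known for its role in endothelial cells and developing T cells, had a contrasting distribution. Endothelial cells held 157.0 to 164.2 CPM, MG 91.6 to 100.5 CPM and T and NK cells 85.5 to 121.3 CPM. Bipolar cells held 27.5 to 31.0 CPM and amacrine cells 39.9 to 45.9 CPM. Rods, at 8.4, 7.8 and 7.7 CPM in control, CCA and CCANT, and cones, at 7.2 to 12.5 CPM, were lowest and overlapped. The MG marker level found in rods would carry 5.8, 5.9 and 7.6 CPM of *Hdac7* into them in the same order. In CCANT the counting interval of the level in rods, 5.84 to 10.08 CPM, included the carried value. In control (interval 5.99 to 11.51 CPM) and CCA (interval 5.96 to 10.14 CPM) the carried value lay below the interval. The source of the *Hdac7* transcripts in rods was not tested.

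*Hdac11* was highest in ganglion cells, at 97.1 to 113.6 CPM, followed by amacrine cells at 76.5 to 81.4 CPM and bipolar cells at 30.8 to 34.3 CPM, with no overlap between these 3 classes. MG held 16.7 to 17.0 CPM and rods 6.5 to 8.8 CPM. Amacrine cells exceeded MG by 4.51-fold, 4.88-fold and 4.58-fold in control, CCA and CCANT.

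*Hdac5* was higher in neurons than in MG in all 3 libraries. Rods held 43.6 to 54.7 CPM, bipolar cells 51.3 to 57.6 CPM, amacrine cells 55.6 to 67.7 CPM and cones 51.1 to 69.4 CPM, while MG held 23.9 to 25.5 CPM. *Hdac6* was highest in cones (25.5 to 29.0 CPM) and amacrine cells (22.8 to 28.6 CPM), whose ranges overlapped, and it also overlapped between MG (15.5 to 17.6 CPM), bipolar cells (15.8 to 18.3 CPM) and rods (16.2 to 20.7 CPM). *Hdac4* was the most even member, and the range of MG, 60.3 to 68.7 CPM, overlapped those of bipolar cells (67.8 to 68.0 CPM), rods (52.0 to 69.7 CPM) and amacrine cells (55.3 to 67.2 CPM).

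Class I members were higher in MG than in most neurons, except *Hdac2*. *Hdac1* was at 75.2 to 79.0 CPM in MG, 53.7 to 59.5 CPM in bipolar cells, 41.7 to 46.3 CPM in amacrine cells, 38.4 to 47.5 CPM in rods and 28.1 to 36.0 CPM in ganglion cells. *Hdac3* was at 28.7 to 31.5 CPM in MG, above amacrine cells (23.5 to 27.3 CPM) and rods (19.0 to 20.6 CPM). Astrocytes held 31.6 to 42.8 CPM, from 15, 33 and 143 cells of control, CCA and CCANT. Their counting intervals, 19.28 to 48.76, 29.94 to 59.19 and 28.57 to 40.28 CPM, included the MG level of the same library. *Hdac8* was at 160.3 to 180.4 CPM in MG, below T and NK cells (208.7 to 309.6 CPM) and above ganglion cells (85.1 to 93.9 CPM). *Hdac2* ran the other way, with 62.5 to 65.3 CPM in ganglion cells, 48.8 to 52.0 CPM in amacrine cells and 34.4 to 39.0 CPM in MG.

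**Figure D3:**
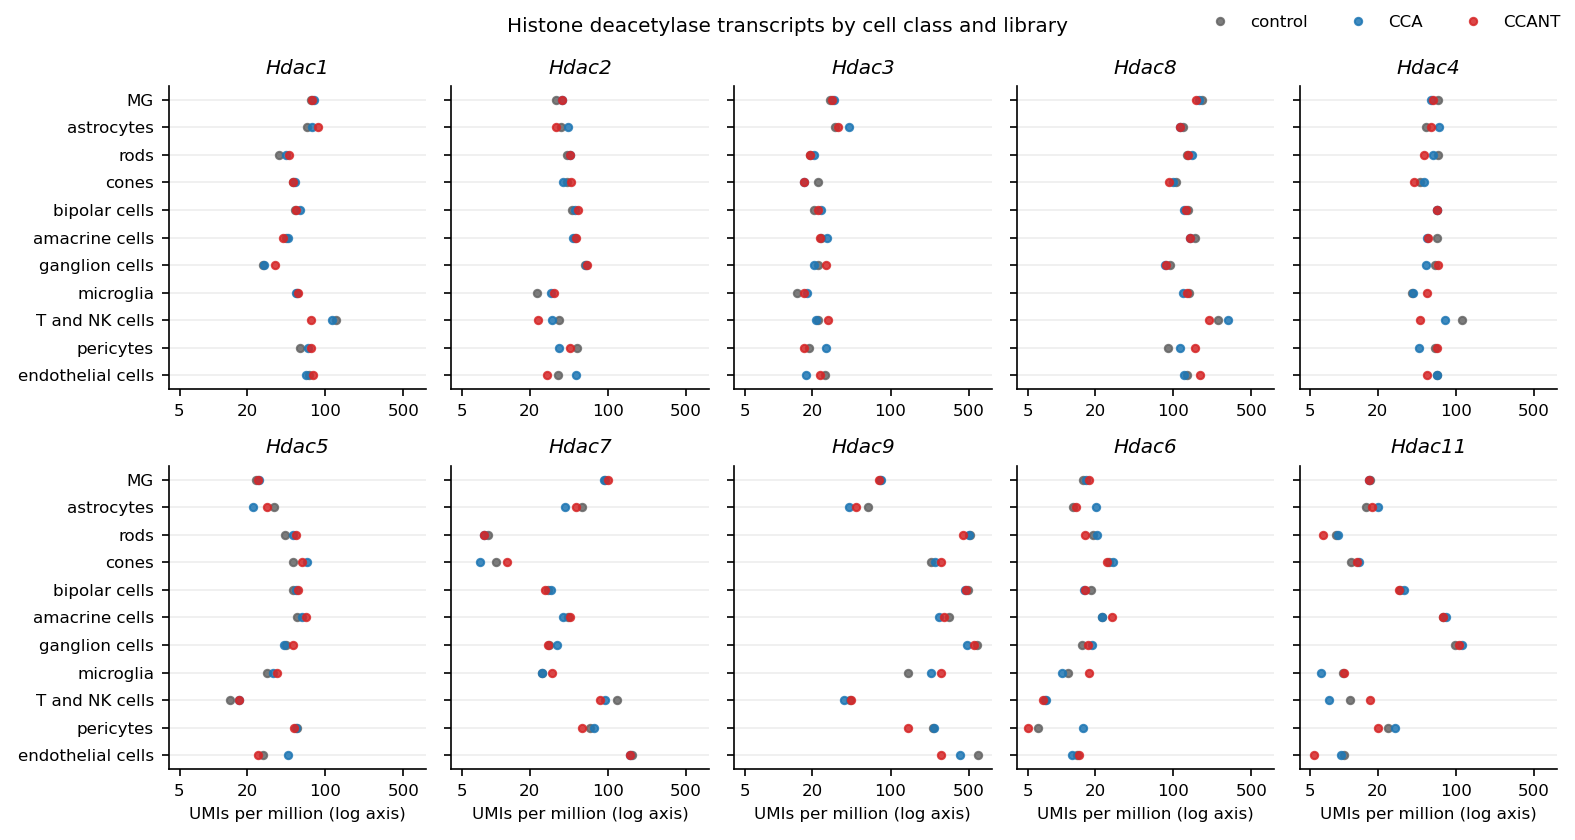
Level of each member by cell class, in CPM on a log axis, with a point per library (control, CCA, CCANT). *Hdac9*, *Hdac7* and *Hdac11* span over 12-fold between classes by their medians over libraries, and the libraries differ for *Hdac9* in microglia (143.2 to 280.9 CPM) and endothelial cells (281.8 to 599.3 CPM).

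CCANT against CCA was then compared within the other classes. No member reached 1.5-fold in rods (5.03% of all genes), bipolar cells (1.53%) or amacrine cells (3.01%). The summed level of the members was lower in CCANT in rods, 831.4 against 907.9 CPM (log2 ratio -0.13, interval -0.18 to -0.08), within counting error of 0 in bipolar cells, 937.5 against 926.5 CPM, and higher in amacrine cells, 830.4 against 796.0 CPM (log2 ratio 0.06, interval 0.02 to 0.10, and 0.02 within *Xist* cells). *Hdac9* made up 497.8 CPM of this sum in CCA rods, 462.8 CPM in CCA bipolar cells and 271.3 CPM in CCA amacrine cells.

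In rods, *Hdac4* was at 69.7 (control), 62.4 (CCA) and 52.0 CPM (CCANT), a log2 ratio of CCANT over CCA of -0.26 (interval -0.46 to -0.06). *Hdac9* in rods had a ratio of -0.15 (interval -0.22 to -0.09). *Hdac6* and *Hdac11* had ratios of -0.35 and -0.44 with intervals that included 0. *Hdac8* was at 147.7 CPM in CCA and 135.2 CPM in CCANT rods. Its ratio within *Xist* rods was -0.09, with an interval that included 0 (-0.26 to 0.08). Within *Xist* rods the ratio of *Hdac4* was -0.50 (interval -0.80 to -0.22). That of *Hdac11* was -1.03 (interval -2.04 to -0.13), at 8.7 CPM in CCA and 4.2 CPM in CCANT. It rests on few UMIs, with 46 in all CCANT rods. For *Xist* over Y rods of CCANT, the *Hdac11* ratio was -1.43 (interval -2.705 to -0.13). In Y rods *Hdac11* went the other way, at 11.4 CPM in CCANT and 7.9 CPM in the control. That ratio was 0.54, with an interval that included 0 (-0.71 to 1.74). Within the CCANT library, *Hdac4* was at 44.7 CPM in *Xist* rods and 71.7 CPM in Y rods, a log2 ratio of -0.68 (interval -1.11 to -0.24). Within Y rods *Hdac4* was at 71.7 CPM in CCANT and 55.5 CPM in the control, a ratio of 0.37 with an interval that included 0 (-0.08 to 0.81). *Hdac9* was lower in CCANT rods of either sex. Its ratios were -0.25 (interval -0.35 to -0.16) over CCA in *Xist* rods and -0.18 (interval -0.35 to -0.02) over the control in Y rods. These splits leave out many rods. A sex call took at least 3 UMIs, and the median rod held 4966 to 5070 UMIs. Y-linked transcripts marked 349 of 850 control rods, and *Xist* 1070 of 1359 CCA rods. Of 1277 CCANT rods, 530 had *Xist* and 176 had Y-linked transcripts. *Xist* cells were 75.1% of sexed CCANT rods, beside 49.0% in bipolar and 51.5% in amacrine cells. The part of depth in these splits was not tested.

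In amacrine cells, *Hdac6* was at 22.8 (control), 23.0 (CCA) and 28.6 CPM (CCANT), highest in CCANT with a log2 ratio over CCA of 0.31 (interval 0.10 to 0.52). It was 0.32 (interval 0.03 to 0.60) within *Xist* cells and 0.37 (interval 0.08 to 0.65) for CCANT over control within Y cells. *Hdac3* had a ratio of -0.22 (interval -0.43 to -0.0031) and *Hdac5* of 0.13 (interval 0.0020 to 0.27). *Hdac7* had a ratio of 0.20 (interval 0.04 to 0.36) and *Hdac9* of 0.13 (interval 0.07 to 0.20) for CCANT over CCA. *Hdac9* in amacrine cells was at 333.2 CPM in control and 335.8 CPM in CCANT cells with Y-linked transcripts, and at 271.3 CPM in CCA and 282.3 CPM in CCANT cells with *Xist*. Within *Xist* cells its ratio of CCANT over CCA was 0.06 (interval -0.03 to 0.14), so the pooled difference was not detectable within that sex. The intervals of *Hdac7* (0.16, -0.07 to 0.38) and *Hdac3* (-0.29, -0.61 to 0.02) also included 0 within *Xist* cells. The *Hdac3* ratio there was larger in size than the pooled -0.22, and *Hdac5* was at 0.19 (interval 0.0051 to 0.36). *Hdac1*, at 44.8, 46.3 and 41.7 CPM over all amacrine cells, was lower in CCANT within *Xist* cells (34.8 against 46.3 CPM, log2 ratio -0.41, interval -0.66 to -0.17) and not within Y cells (45.1 against 44.8 CPM in the control).

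In bipolar cells the intervals of all 10 members included 0 for CCANT over CCA. Within *Xist* bipolar cells *Hdac9* was at 462.8 CPM in CCA and 498.7 CPM in CCANT, a log2 ratio of 0.11 (interval 0.05 to 0.16). The ratio of *Hdac6* there was 0.22 (interval -0.08 to 0.52). Within Y bipolar cells *Hdac6* was at 18.49 CPM in the control and 14.23 CPM in CCANT, a ratio of -0.38 (interval -0.71 to -0.05). For *Xist* over Y bipolar cells of CCANT its ratio was 0.37 (interval 0.0091 to 0.73).

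Of MG, rods, bipolar cells, amacrine cells and microglia, microglia held the largest difference of a member between libraries. This class was taken by a summed marker level, and macrophages were not separated from microglia. The part of their mix in the differences between libraries was not tested. *Hdac9* was at 143.2 CPM (interval 132.5 to 154.6) in control, 232.3 CPM (216.2 to 249.2) in CCA and 280.9 CPM (261.3 to 301.6) in CCANT microglia, and the intervals do not overlap. The log2 ratios were 0.70 (interval 0.55 to 0.85) for CCA over control, 0.27 (0.13 to 0.42) for CCANT over CCA and 0.97 (0.82 to 1.12) for CCANT over control. All sexed microglia carried Y-linked transcripts in the control and *Xist* in CCA, so vector, sex and animal cannot be told apart between these libraries. In CCANT microglia *Hdac9* was at 246.4 CPM in 57 *Xist* cells and 305.4 CPM in 50 Y cells. That log2 ratio was -0.31 (interval -0.56 to -0.06). Within Y cells, *Hdac9* was at 144.6 CPM in control and 305.4 CPM in CCANT microglia, a log2 ratio of 1.08 (interval 0.87 to 1.28). Within *Xist* cells, CCANT over CCA was 0.07 (interval -0.14 to 0.28), so the step from CCA to CCANT was not detectable there.

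Transcripts of other cell types also differed between the microglia of the libraries. Rod markers were at 2.1%, 4.1% and 5.2% of their level in rods in control, CCA and CCANT microglia, and bipolar markers at 1.6%, 2.9% and 7.2% of their level in bipolar cells. MG markers summed to 53.8%, 64.7% and 107% of their level in MG, most of it *Apoe*, a gene that microglia also express, at 11755, 14897 and 27601 CPM. The other 8 MG markers, none at 0, were at 14.8%, 13.5% and 19.9% of their level in MG and would carry 11.7, 11.0 and 15.8 CPM of *Hdac9*, and with this part subtracted the log2 ratios of *Hdac9* were 0.75 for CCA over control, 0.26 for CCANT over CCA and 1.01 for CCANT over control. At the shares of their markers, rods would carry 10.6, 20.4 and 23.3 CPM of *Hdac9* and bipolar cells 8.0, 13.4 and 34.1 CPM. With the rod part subtracted the log2 ratios were 0.68 for CCA over control, 0.28 for CCANT over CCA and 0.96 for CCANT over control, and with the rod and bipolar parts subtracted 0.67, 0.17 and 0.84 in the same order. Markers of plasma and B cells were at 225.0, 160.3 and 4144 CPM, with none of the 5 at 0, and their part in the result was not tested. Of the cells in the immune cluster, 14, 9 and 7 lay within 10 marker UMIs per 10000 of the limit that separated microglia from the others. With all cells of the immune cluster *Hdac9* was at 180.2, 222.4 and 240.8 CPM, and its log2 ratios were 0.30 for CCA over control and 0.42 for CCANT over control, and 0.11 for CCANT over CCA.

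In microglia, 2 of 10 members passed 1.5-fold for CCANT over CCA (19.8% of all genes), namely *Hdac6* and *Hdac11*, which rest on few UMIs. *Hdac6* had 53, 34 and 48 UMIs, or 11.5, 10.2 and 17.7 CPM, in control, CCA and CCANT. Within *Xist* cells its log2 ratio of CCANT over CCA was 0.95 (interval 0.06 to 1.81). Within Y cells its ratio of CCANT over control was 0.48, with an interval that included 0 (-0.43 to 1.32). *Hdac11* had 45, 21 and 27 UMIs, and the interval of its ratio included 0. For CCA over control, *Hdac9* and *Hdac11* passed (13.0% of all genes), and for CCANT over control *Hdac9* and *Hdac6* (18.3%). *Hdac4* was at 40.8, 41.5 and 54.6 CPM, with a log2 ratio of CCANT over CCA of 0.40 (interval 0.05 to 0.74), and of 0.10 (interval -0.42 to 0.60) within *Xist* cells. Within Y cells *Hdac4* was at 41.2 CPM in the control and 64.0 CPM in CCANT, a ratio of 0.64 (interval 0.19 to 1.06).

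**Figure D4:**
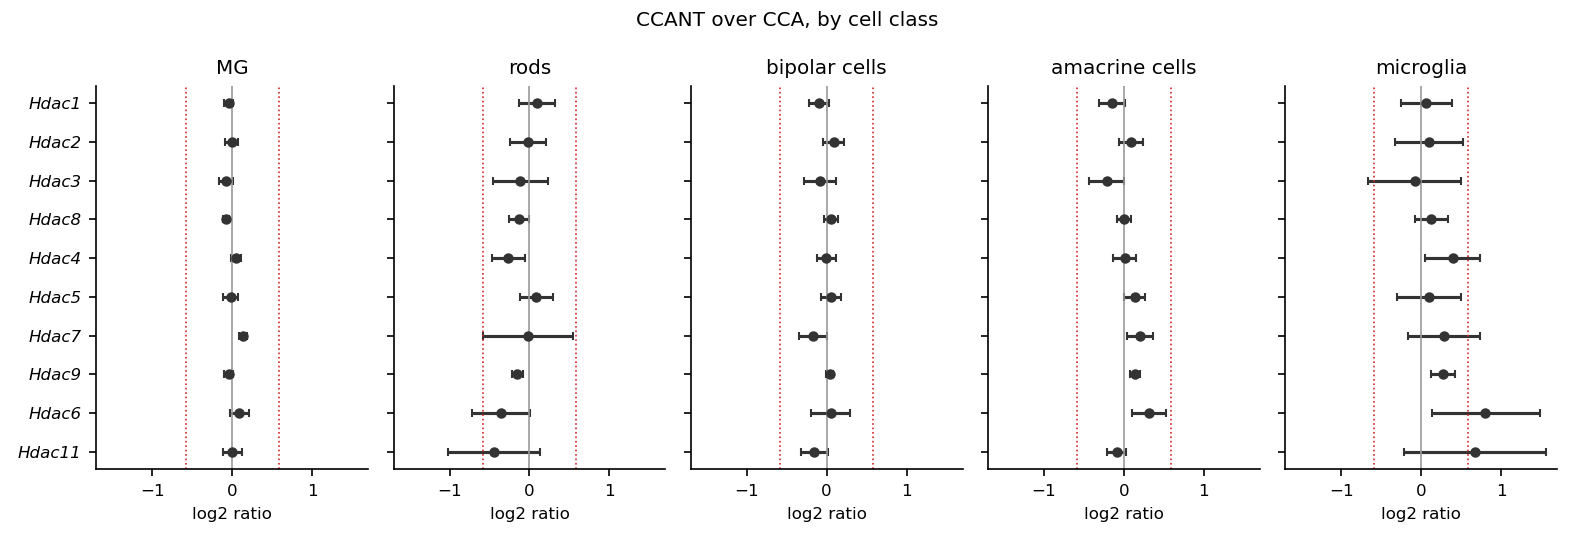
Log2 ratio of CCANT over CCA for each member in MG, rods, bipolar cells, amacrine cells and microglia, with exact 95% counting intervals; dotted lines mark 1.5-fold. Intervals are narrow in MG, where *Hdac7* has the largest ratio (0.13), and wide in microglia, where *Hdac6* (0.80) and *Hdac11* (0.67) pass the line.

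The genes that work with or against the deacetylases were taken as lists. The 32 genes listed as partners of HDAC1 and HDAC2 were mostly subunits of the SIN3, NuRD and CoREST complexes. Of these genes, 31 passed the filter on level in MG. None of the 31 differed by a log2 ratio of 0.32 between CCANT and CCA, where 9.21% of all genes did. Their median log2 ratio was -0.01 (range -0.18 to 0.21). *Trerf1* (0.21, and 0.15 within *Xist* cells) and *Rcor3* (0.12, and 0.06 within *Xist* cells), a CoREST subunit, were highest in that comparison. *Mbd3* (-0.18), a NuRD subunit, and *Suds3* (-0.13), a SIN3 subunit, were lowest. For CCA over control, 1 of the 31 passed 1.5-fold (6.38% of all genes), the SIN3 subunit *Sap30*, at 8.1 (control), 13.0 (CCA) and 11.9 CPM (CCANT) in MG (log2 ratio 0.68). *Sap30* was also higher in cycling than in other MG of CCA, with a log2 ratio of 1.40.

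For CCANT over CCA, none of the 5 NCoR corepressor subunits, partners of HDAC3, reached a log2 ratio of 0.32 (9.21% of all genes). Their median was 0.07. The core subunit *Tbl1x* was at 0.09, *Gps2* at -0.07 and *Ncor1* at 0.00. Among the 4 MEF2 factors, *Mef2c* was at 25.4, 25.5 and 20.9 CPM in control, CCA and CCANT, lower in CCANT with a ratio over CCA of -0.29 (interval -0.39 to -0.19), and *Mef2b* was at -0.02, or -0.10 within *Xist* cells. The 7 sirtuins ranged from -0.15 (*Sirt4*) and -0.12 (*Sirt2*) to 0.16 (*Sirt3*) and 0.17 (*Sirt6*). Within *Xist* cells *Sirt6* was at 0.06 and *Sirt4* at -0.08.

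Of 10 histone acetyltransferases, none reached a log2 ratio of 0.32 for CCANT over CCA with all MG, where 9.21% of all genes did. For CCA over control 2 of the 10 were higher by that limit, where 17.5% of all genes passed it in either direction. *Hat1*, which acetylates newly made histone H4, was at 26.6 (control), 39.8 (CCA) and 34.0 CPM (CCANT) in MG, a log2 ratio of -0.22 (interval -0.31 to -0.14) for CCANT over CCA, -0.34 within *Xist* cells, and 0.58 (interval 0.50 to 0.66) for CCA over control. In CCA it was higher in cycling than in other MG with a log2 ratio of 2.01, the libraries held 2, 339 and 103 cycling MG, and their part in the result was not tested. *Kat5* was at -0.18, and *Ep300* (0.10, and 0.06 within *Xist* cells) and *Kat6b* (0.09) were highest. The BET readers *Brd2* and *Brd3*, which bind acetylated lysines, were at -0.07 and 0.06, and *Brd3* at 0.04 within *Xist* cells.

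The 4 genes listed because HDAC inhibitors are known to raise them differed in direction between CCA and CCANT, with 1 of 4 past 1.5-fold (3.18% of all genes), 3 past a log2 ratio of 0.32 (9.21%), 2 of them lower, and a median log2 ratio of -0.31, beside -0.03 for all genes tested. *Txnip*, an inhibitor of thioredoxin that also responds to glucose, was at 42.4 (control), 62.9 (CCA) and 124.7 CPM (CCANT) in MG, a ratio of 0.99 (interval 0.93 to 1.04) for CCANT over CCA, and the same 0.99 within *Xist* cells. *Cdkn1a*, which encodes the cell cycle inhibitor p21, was at 9.7, 77.1 and 61.4 CPM, highest in CCA, with ratios of 2.99 for CCA over control and -0.33 (interval -0.39 to -0.27) for CCANT over CCA, and -0.68 for the latter within *Xist* cells. *H1f0*, the replacement linker histone, was at 56.1, 101.3 and 83.0 CPM, and *Gsn*, the actin-severing protein gelsolin, at 9.2, 17.2 and 13.3 CPM. Within *Xist* cells their ratios of CCANT over CCA were -0.36 and -0.40. All 4 were higher in both CCA libraries than in the control.

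**Figure D5:**
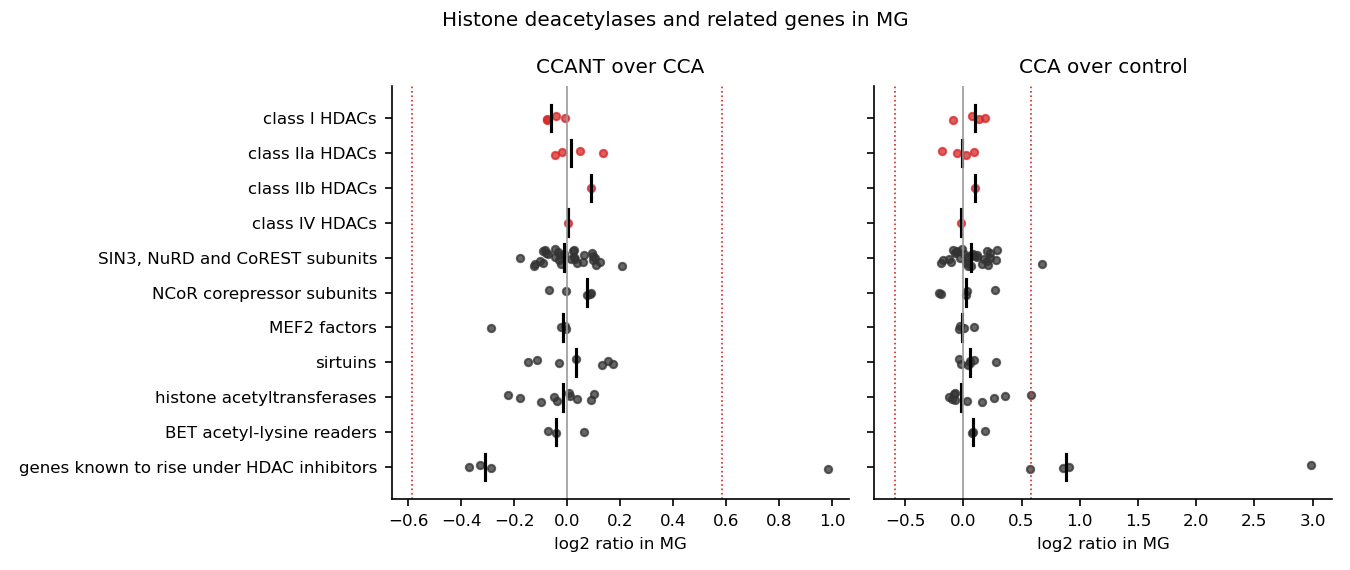
Log2 ratios in MG for the deacetylases by class (red) and for related gene lists (black), with a point per gene and a bar at the median of the list; the left panel is CCANT over CCA and the right panel CCA over control, and dotted lines mark 1.5-fold. The deacetylases lie between -0.19 and 0.18 in both panels, while *Txnip* (0.99) on the left and *Cdkn1a* (2.99) on the right stand apart.

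The genes with the pattern most like each member were found by Pearson's r of log2(CPM + 1) over 33 points, 11 classes in 3 libraries, among 8848 genes that averaged 20 CPM or more. The points share libraries and depth, so r is a description. *Hdac11* was closest to *Nsg1* (r = 0.95), *Ppp2r1a* (0.93) and *Kif5a* (0.93), and *Hdac7* to *Abhd2* (0.93), *Lrrc8c* (0.93) and *Rras2* (0.92). *Hdac5* was closest to *Chrna7* (0.87) and *Hagh* (0.86), *Hdac1* to *Gnai3*, *Gramd3* and *Ss18* (0.85 to 0.86), and *Hdac6* to *Esrrg*, *Miga1* and *Tdrkh* (0.82 to 0.85). *Hdac2* was closest to *Osbpl2*, *Ppm1a* and *Ubac1* (0.82 to 0.84), *Hdac9* to *0610010F05Rik*, *Tbpl1* and *Carm1* (0.82 to 0.84), *Hdac3* to *Scd2*, *Aldoc* and *Myh14* (0.79 to 0.83), and *Hdac8* to *Hnrnpll*, *Pigx* and *Micu2* (0.80 to 0.82). *Hdac4*, the most even member, had no gene above 0.68 (*Spen*), followed by *Sesn3* (0.60) and *Ablim1* (0.59). Between members, r was highest for *Hdac5* and *Hdac9* (0.74) and lowest for *Hdac1* and *Hdac9* (-0.76).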

How the data were processed

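The authors made the deposited count matrices, whole UMI counts, by running Cell Ranger 6.1.1 against mm10 plus tdTomato and GFP, with intronic reads, and deposited a joint table of counts of 10926 cells and 26167 genes, without Y-linked genes, *Xist* and *Tsix*. MG were taken from the cells of the joint table, each of which held at least 1 tdTomato UMI, with counts from the matrices. The other classes came from all barcodes that held 2000 features or more, no more than 100000 UMIs and a mitochondrial share of 15% or less. Cells were clustered with leidenalg 0.10.2 on 2000 variable genes without the members, and clusters were named from markers by rules set after the clusters had been seen; microglia had at least 30 microglia marker UMIs per 10000 within the immune cluster. No doublets were removed from these classes; Scrublet's own threshold marked 0, 479 and 0 cells, so the top 5% of scores served as an alternative. A cell was sexed by at least 3 UMIs of *Xist* or of 4 Y-linked genes and at most 1 of the other. A cluster with markers of both MG and rods was left out of both. Among the cells of the joint table it held 29, 211 and 430 cells of control, CCA and CCANT. The matching cluster among all barcodes passing the filters held 317, 627 and 1174 cells in the same order.

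With 1 library per group no p-value was computed. Ratios of CPM carry exact 95% intervals from the binomial share of the summed counts, and levels carry exact Poisson intervals. UMIs are counted molecules, and both cover counting error only. Scripts were tested on simulated counts. The members and gene lists were chosen with earlier results of these data known. Named genes are all 10 members, for each other list up to 2 genes with the largest rise and 2 with the largest fall from CCA to CCANT in MG, and the 3 genes most like each member, of which 3 named genes are not reported here; *Sap30*, *H1f0* and *Hdac10* were named after their values were seen. Alternatives covered scaling, mean over cells, the joint table, the choice of cells, depth, sex and subtraction of rod or MG transcripts.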

Additional observations from a re-analysis of the deposited data

Results flagged for a closer look

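Some members had CCANT over CCA ratios in opposite directions in different cell classes, each with a counting interval clear of 0; with 1 library per group the differences between classes were not tested. *Hdac4* had a log2 ratio of -0.26 in rods and 0.40 in microglia. *Hdac9* had -0.15 in rods, 0.13 in amacrine cells and 0.27 in microglia, and the sum of the 10 members had -0.13, 0.0610 and 0.22, and within *Xist* cells -0.18, 0.0231 and 0.10. Within *Xist* cells the ratios in rods were -0.50 for *Hdac4* and -0.25 for *Hdac9*, while that of *Hdac9* was 0.06 in amacrine cells (interval -0.03 to 0.14) and 0.07 in microglia (-0.14 to 0.28), and that of *Hdac4* was 0.10 in microglia (-0.42 to 0.60), with intervals that include 0. For CCANT over control within Y cells, *Hdac4* was at 0.37 in rods (interval -0.08 to 0.81) and 0.64 in microglia (0.19 to 1.06). *Hdac9* was there at -0.18 in rods (-0.35 to -0.02), 0.01 in amacrine cells (-0.07 to 0.09) and 1.08 in microglia (0.87 to 1.28).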

How the results depend on the processing

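Groups of 1 library leave the sample-to-sample spread unknown. No paired analysis was possible because each group holds 1 library, so the groups share fewer than 2 replicate numbers. For CCANT over CCA, the summed level moved from -0.0092 to -0.0317 in MG, from 0.0170 to 0.0495 in bipolar cells, from 0.0610 to 0.0231 in amacrine cells and from 0.22 to 0.10 in microglia when only cells with *Xist* were used, and to 0.35 in microglia as a mean over cells. For CCA over control in MG it moved from -0.0192 to -0.0379 with median-of-ratios factors and to -0.0422 with cells thinned to 8000 UMIs. For CCANT over control it moved from -0.0283 to -0.0476 with thinning and to -0.0067 without the tdTomato requirement. *Hdac5* for CCA over control in MG changed sign with thinning (-0.0152). The count of members past 1.5-fold in MG was 0 in every alternative run, the lower limit of 0.32 on the log2 scale included, and 18 of 40 pairs of member and class differed from MG by 1.5-fold in all 3 libraries (45.5% to 54.2% of all genes by class). Of the remaining values, 32 moved outside their counting interval and 544 did not. Subtracting MG transcripts with all MG markers gave no value in microglia, since *Apoe* is also a microglial gene; the markers without *Apoe*, the rod and the rod and bipolar subtractions in microglia, the whole immune cluster, the sum without *Hdac9* and sex without cycling MG were added after the data had been seen. The causes of these shifts were not tested.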
